A study of Rattus norvegicus with 8 samples.

Results

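Metallothioneins bind zinc and copper, and a small group of other proteins carries iron, takes it up, stores it, exports it or frees it from heme. The set described here holds 8 rat genes of this kind, namely Mt1a, Mt2A, Mt3, Cp, Hmox1, Fth1, Tf and Tfrc. They were chosen by name, as the spots other than controls whose gene name in the array files is one of these 8. They are 8 of the 26334 gene names on the array and are read by 13 of its 30367 probes, on 31 spots per array. Of the 8, 7 passed the filter on dim and outlying spots. Mt1a did not pass, because its only spot carries the scanner software's outlier mark on array 3, and its values are given without that array and with it.

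The study asked how the transcriptome of the rat retina differs after injury of the optic nerve, an injury after which retinal ganglion cells (RGCs) are known to die. The retinas came from female Lister Hooded rats 8 weeks old. In 4 animals the nerve was crushed within the orbit (ONC), 3 mm behind the optic disc and for 10 s, and in 4 controls (CTR) it was laid bare by the same route and left unpinched. The retinas were taken 2 weeks after surgery, and each was profiled on its own, with a retina in either color of 4 two-color Agilent arrays.

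The metallothionein genes Mt1 and Mt2 are switched on by zinc through the transcription factor Mtf1. In nervous tissue Mt1 and Mt2 are best known from glia and Mt3 from neurons. Retinal cells take up iron as transferrin (Tf) bound to its receptor (Tfrc), store it in ferritin (Fth1 is the heavy chain) and export it with the help of ceruloplasmin (Cp), while heme oxygenase 1 (Hmox1) opens the heme ring and releases its iron. When iron is scarce, iron regulatory proteins stabilize the Tfrc transcript and hold back the translation of ferritin, so that ferritin protein can change with no change in Fth1 transcript.

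The labels and the data have to be set side by side before any result. The labels put the CTR and the ONC retina of one number on one array, every CTR retina in Cy5 (red) and every ONC retina in Cy3 (green), so that dye and condition cannot be told apart. The study's methods give another layout, in which CTR1 (green) shares an array with CTR2 (red), CTR3 with CTR4, ONC1 with ONC2 and ONC3 with ONC4. The groups are taken from the labels, which come with the deposited arrays, and the methods' layout is not used: CTR and ONC below mean the channel labelled so. Whether names were exchanged between channels when the files were labelled was not tested, and an exchange of the whole groups would turn the sign of every difference below.

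Markers of RGCs did not follow the labels. Of 14 markers, 10 passed the filter, and their median level, relative to each gene's mean over the 8 channels, was -1.57, 1.16, -1.14 and -0.97 (log2) in CTR1 to CTR4, while ONC1 to ONC4 had 1.24, 1.24, 1.37 and -1.24. The marker medians were thus high in ONC1, ONC2, ONC3 and CTR2 and low in CTR1, CTR3, CTR4 and ONC4. The summed level of the 10 genes on the log2 scale was 2.56, 4.94, 2.83 and 3.19 in CTR1 to CTR4, while ONC1 to ONC4 had 5.24, 5.17, 5.30 and 3.16. The brightest of them, Tubb3, ranged from 1.02 in CTR1 to 2.92 in ONC3. Tubb3 did not follow the split of the medians, at 1.80 in both CTR2 and CTR4 and 2.24 in ONC4. All 10 were higher in the retinas labelled ONC, by a median of 1.29, the opposite of the direction that a loss of RGCs would give and of the direction in the study, and Cp and Hebp2 below likewise have the opposite direction to the study. In limma 0 of the 10 passed an adjusted p of 0.05. For this reason the difference of each gene below is given with all channels and without CTR2 and ONC4, and every direction below is that of the labels. Of 9 markers of Müller glia, a cell type of the retina, 8 passed, with Dkk3 the brightest and Kcnj10 not well above background. Lens crystallins were high in CTR2, where the median of 10 lens markers was 1.21, against -0.62 to 0.34 in the other channels. In a whole retina, fewer cells of a type and less RNA per cell cannot be told apart.

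A level here is the log2 intensity of a gene after background subtraction and loess, relative to the median of its channel, and a difference is ONC minus CTR. The median raw brightness of a spot was 468.2, 626, 446.6 and 468.1 in CTR1 to CTR4, over a background of 55 to 56.5. In ONC1 to ONC4 it was 337.3, 494.7, 331.9 and 218.1, over a background of 26 to 29.5. ONC4 was the dimmest channel, with 66.8% of spots well above background against 72.5% to 79.4% in the other channels. No spot was saturated, and the number of arrays limits the precision.

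Among the 7 genes tested, limma called 0 at an adjusted p under 0.05, where it called 81 of 16307 genes (0.497%). By direction, 0 of 7 were called higher in ONC, against 0.233% of all genes, and 0 of 7 were called lower, against 0.264%. The count over all genes depends on the retinas used: it was 0 when any single retina other than ONC2 was left out, 38 without ONC2 and 415 without CTR2 and ONC4. At an unadjusted p under 0.05, 3 of the 7 passed (Cp, Fth1 and Tfrc), against 18.6% of all genes. The groups did not overlap for 2 of 7, Fth1 and Tfrc, against 12.7% of all genes. By the methods' t-test at an unadjusted p under 0.05, applied without the fold-change cut-off that the methods add, the same 2 genes passed, against 16.4% of all genes, and 0 of 7 passed after Benjamini-Hochberg adjustment. When CTR2 and ONC4 were left out, limma again called 0 of 7, against 2.54% of all genes, with 3 of 7 at an unadjusted p under 0.05, against 23.8%. A fit that blocks on the array had 0 limma calls among the 7, against 7.69% of all genes, and 6 of 7 at an unadjusted p under 0.05 (all but Mt2A), against 31.3%. Without loess, with each channel only scaled to its median, it called 2 of 7, Fth1 down and Tfrc up, against 19.6% of all genes.

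**Figure D1:**
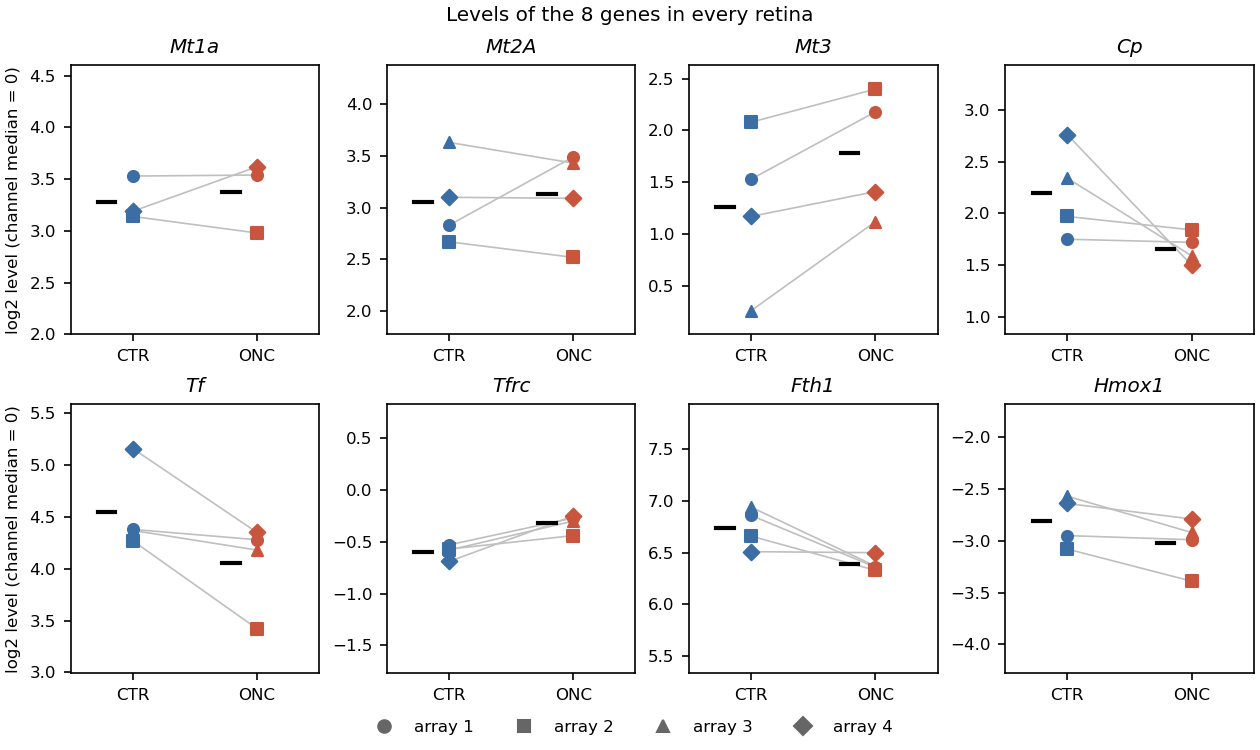
Level of each of the 8 genes (log2, relative to the channel median, vertical axis) in the retinas labelled CTR and ONC, with 1 point per retina, its shape showing the array, gray lines joining retinas of one array, black bars at the group means, and Mt1a shown without array 3. The points of Fth1 and Tfrc fall into separate ranges by label and those of the other genes overlap.

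The metallothioneins come first. Mt1a, Mt2A, Mt3 and Mt4 lie in a row on chromosome 19, all on the minus strand, with 5.7 kb between the starts of Mt1a and Mt2A and 17.4 kb between those of Mt2A and Mt3. Because their proteins are alike, the first 30 of the 60 bases of each probe are shown, 5' to 3', to make plain that the probes read different stretches. The array files place them on the minus strand of rat build rn4, the Mt1a probe at chr19:11261631-11261690, those of Mt2A at chr19:11267834-11267893 and chr19:11268168-11268227, and that of Mt3 at chr19:11284627-11284686.
Mt1a probe: cccagtttactaaaccccgttttctaccga
Mt2A probe 1: ttttttgtacaaccctgaccggttctccac
Mt2A probe 2: tcctgctcctgcgctggctcctgcaaatgc
Mt3 probe: aaatgcagctgctgccagtgaggactccca
Over their full length, the best match between probes of different genes was that of Mt1a with the first Mt2A probe, with 25 identical bases of 45 aligned and no shared run over 7 bases. The longest run shared by any pair of them was 9 bases, between the Mt1a and the Mt3 probe.

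Mt1a, a zinc-inducible metallothionein, was at 3.53, 3.14 and 3.19 in CTR1, CTR2 and CTR4 and at 3.54, 2.98 and 3.62 in ONC1, ONC2 and ONC4. The groups overlapped, and both the lowest and the highest of these retinas were labelled ONC. Means were 3.28 ± 0.21 (SD, n = 3) in CTR and 3.38 ± 0.35 (SD, n = 3) in ONC. The difference was 0.10 ± 0.20 (SE; 95% interval -0.37 to 0.57; limma adjusted p = 0.852), less than the spread within either group. On array 3, the one with the outlier mark, the spot read 3.48 in CTR3 and 2.74 in ONC3, and with these kept the difference turned to -0.11 (limma adjusted p = 0.831). Without CTR2 and ONC4 it was -0.09 with the marked spot left out and -0.31 with it kept, so that its sign depends on these channels. In CTR2, CTR4 and ONC1, the channels of arrays 1, 2 and 4 for which the labels and the methods name the same dye, it was 0.38, with only 1 ONC retina and so no spread in that group.

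Mt2A, its close relative and likewise zinc-inducible, was at 2.83, 2.67, 3.63 and 3.1 in CTR1 to CTR4 and at 3.49, 2.52, 3.43 and 3.09 in ONC1 to ONC4. CTR3, ONC1 and ONC3 were high, CTR1, CTR2 and ONC2 were low, and the groups overlapped almost fully. The means were 3.05 ± 0.42 in CTR and 3.13 ± 0.45 in ONC (SD, n = 4 each). Their difference was 0.08 ± 0.26 (SE; 95% interval -0.51 to 0.66; limma adjusted p = 0.911) and, without CTR2 and ONC4, -0.04 (limma adjusted p = 0.951). Mt2A was higher in ONC on 1 of 4 arrays. Its first probe is printed on 10 spots, which gave differences from -0.11 to 0.31, with a mean of 0.19, and the second probe gave -0.03. In CTR2, CTR4, ONC1 and ONC3 alone, which add ONC3 to those channels, the difference was 0.58 (limma adjusted p = 0.394).

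Mt3, the form of neurons and also called growth inhibitory factor, was at 1.53, 2.08, 0.26 and 1.17 in CTR1 to CTR4. In ONC1 to ONC4 it was at 2.18, 2.40, 1.12 and 1.41. It varied most of the 7 genes, CTR3 was far below the other retinas, and ONC2, ONC1 and CTR2 were at the top, so that the groups overlapped. The means were 1.26 ± 0.76 in CTR and 1.78 ± 0.61 in ONC (SD, n = 4 each). The difference of 0.52 ± 0.40 (SE; 95% interval -0.39 to 1.43; limma adjusted p = 0.542) was under the SD of either group. Array by array, ONC was higher by 0.65, 0.33, 0.87 and 0.24. With the array as a block the same difference had an SE of 0.12 (95% interval 0.24 to 0.80) and did not pass (limma adjusted p = 0.0508). Without CTR2 and ONC4 the difference was 0.91, a 1.88-fold higher level in ONC (limma adjusted p = 0.234). Without CTR3 it was 0.19, and in CTR2, CTR4, ONC1 and ONC3 alone it was 0.03. The high Mt3 of CTR2, ONC1 and ONC2 came in channels with high RGC markers, but ONC3, the channel with the highest marker median (1.37), had the lowest Mt3 level (1.12) of the ONC retinas, and the part of RGCs in the Mt3 levels was not tested.

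Mt2A and Mt3, neighbors on the chromosome, did not move together: CTR3 had the highest Mt2A and the lowest Mt3 level, and ONC2 had the lowest Mt2A and the highest Mt3 level. Their promoters are printed with that of Mt1a because all of them hold the core letters that Mtf1 is known to bind. They are the 250 bases before each start from RefSeq (build GRCr8, minus strand), written 5' to 3' along the gene, at chr19:10832976-10833225 for Mt1a, named Mt1 there, at chr19:10838709-10838958 for Mt2A and at chr19:10856081-10856330 for Mt3. Capitals mark each match to TGCACNC or TGCGCNC on either strand.
Mt1a promoter: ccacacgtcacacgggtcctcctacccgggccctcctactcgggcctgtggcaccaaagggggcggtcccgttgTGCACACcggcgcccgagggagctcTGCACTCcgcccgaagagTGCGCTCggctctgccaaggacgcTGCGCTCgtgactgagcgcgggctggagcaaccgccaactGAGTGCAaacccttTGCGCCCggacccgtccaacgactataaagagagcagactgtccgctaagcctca
Mt2A promoter: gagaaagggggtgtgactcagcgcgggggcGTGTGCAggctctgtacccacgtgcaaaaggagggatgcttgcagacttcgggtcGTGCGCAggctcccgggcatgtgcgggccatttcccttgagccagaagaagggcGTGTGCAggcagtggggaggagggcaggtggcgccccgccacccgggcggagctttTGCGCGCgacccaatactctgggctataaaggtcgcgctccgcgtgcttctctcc
Mt3 promoter: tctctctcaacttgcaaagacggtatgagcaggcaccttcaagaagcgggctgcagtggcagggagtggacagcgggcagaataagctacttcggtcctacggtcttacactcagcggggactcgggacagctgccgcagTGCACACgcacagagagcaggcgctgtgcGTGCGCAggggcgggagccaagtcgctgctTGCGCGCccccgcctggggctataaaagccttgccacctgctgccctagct
The core occurs 6 times in the Mt1a promoter, 4 times in that of Mt2A and 3 times in that of Mt3. At least 1 core is found in 20.6% of 33469 rat promoters of this length, at least 3 in 1.17%, at least 4 in 0.266%, and at least 6 in 9 promoters. In each of the 3, the core nearest to the start begins at -55, -55 and -51, counted back from the start, and the letters TATAA begin at -32, -31 and -31. The promoter of Tfrc holds 3 cores in 2 separate stretches, that of Tf holds 2 and that of Cp 0. A match describes these letters and shows no binding. The array data give transcript levels only, and whether the cores bear on them was not tested.

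Of the iron and heme genes among the 8, Cp had the largest difference between group means with all channels and loess, though its groups overlapped. Without CTR2 and ONC4 that of Tf was larger (-0.68). Without loess those of Fth1, Tf and Tfrc (-0.75, -0.64 and 0.61) were larger than that of Cp (-0.59). Ceruloplasmin (Cp), a copper-bearing ferroxidase that loads exported iron onto transferrin, was at 1.75, 1.97, 2.34 and 2.76 in CTR1 to CTR4 and at 1.72, 1.84, 1.59 and 1.50 in ONC1 to ONC4. CTR4 and CTR3 stood above all other retinas, while CTR1 lay within the ONC range. The means were 2.20 ± 0.44 in CTR and 1.66 ± 0.15 in ONC (SD, n = 4 each). The difference was -0.54 ± 0.20 (SE; 95% interval -1.0 to -0.08), a 1.46-fold lower level in ONC that did not pass (limma adjusted p = 0.2). It was -0.57 without CTR2 and ONC4 (limma adjusted p = 0.206) and -0.36 without CTR4 alone. On the 4 arrays in turn it was -0.03, -0.12, -0.76 and -1.26, small on arrays 1 and 2 and large on arrays 3 and 4.

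Cp is read by 3 probes on the plus strand of chromosome 2 (rn4), at chr2:105129670-105129729, chr2:105135264-105135323 and chr2:105148774-105148833, and probes 2 and 3 are annotated to different transcript variants. Their first 30 bases are shown because the difference came out of the same sign in 3 separate stretches.
Cp probe 1: tcaatacataccccgatcaccctgagaaag
Cp probe 2: gttgaaggatgctctcggaaaatagagaaa
Cp probe 3: ctttgcccctcaaaagctatattctaaatt
The differences were -0.75 (95% interval -1.26 to -0.24), -0.37 (-0.88 to 0.14) and -0.50 (-0.91 to -0.10), with limma adjusted p values of 0.125, 0.421 and 0.179. All 3 probes were highest in CTR4. Only probe 3 kept the groups apart, and barely so, with CTR1 at 2.16 and ONC2 at 2.15.

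The retinas with high Cp also had high levels of glial and immune markers. Of 8 reactive glia markers 7 passed, and their median, relative to each gene's mean, was -0.37, -0.24, 0.45 and 0.88 in CTR1 to CTR4, while ONC1 to ONC4 had -0.14, -0.54, -0.09 and 0.01. CTR3 and CTR4 were again the highest. The summed log2 level of these markers was 3.81, 3.86, 4.60 and 5.03 in CTR1 to CTR4, while ONC1 to ONC4 had 3.97, 3.62, 3.95 and 4.04, and the brightest was Vim, at 2.49 and 2.59 in CTR3 and CTR4 and at 1.94 to 2.32 elsewhere. Of 11 markers of microglia and macrophages 10 passed, with a median of 0.51 in CTR3, 0.56 in CTR4 and -0.39 to 0.06 in the other channels. Their summed log2 level was 4.15, 3.91, 4.89 and 4.93 in CTR1 to CTR4, while ONC1 to ONC4 had 3.76, 4.23, 3.93 and 4.20. Ctss was the brightest and Cd163 was not well above background in any channel. The part of these cells in the Cp levels was not tested.

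**Figure D2:**
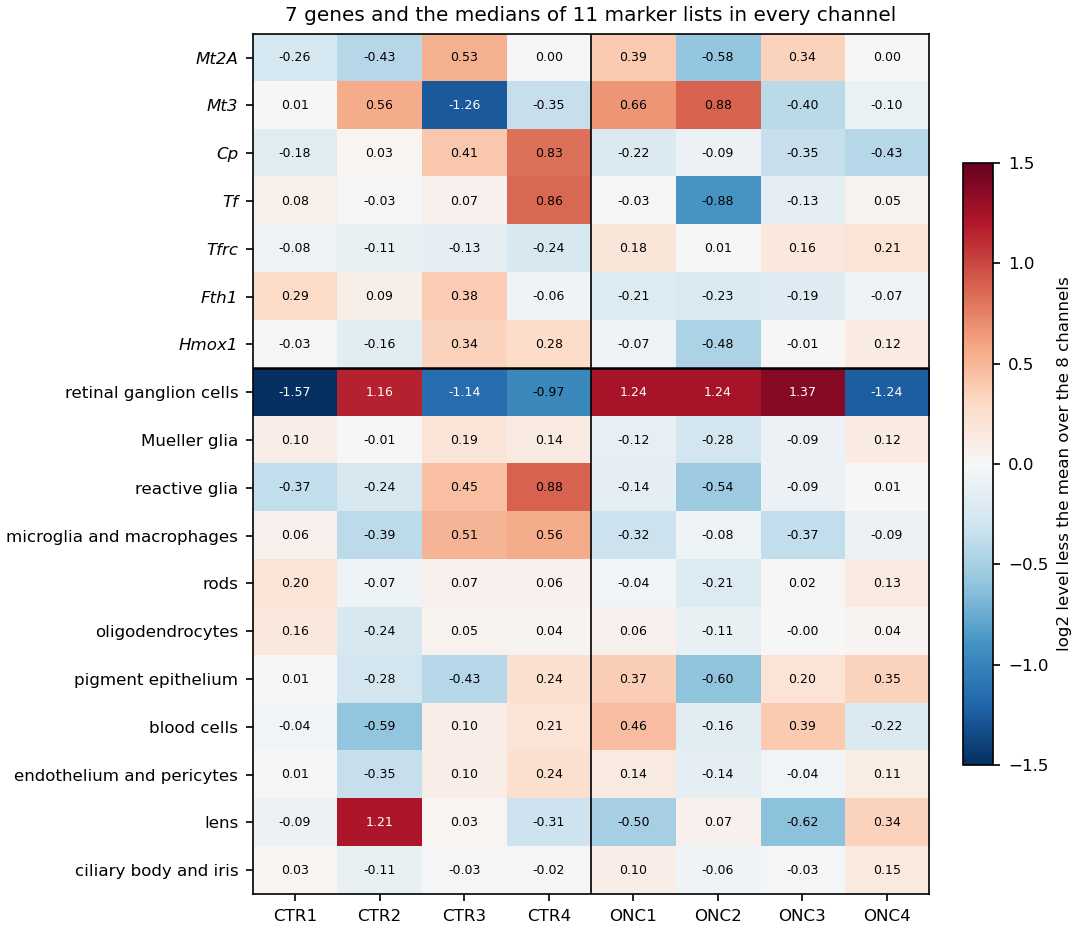
Level of the 7 tested genes and the median level of 11 lists of cell type markers (color, log2, relative to the mean over the 8 channels) in each channel. RGC markers split the channels against the labels, from -1.57 in CTR1 to 1.37 in ONC3, and the high Cp of CTR3 and CTR4 falls in the channels where the glial and microglial medians are highest.

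Transferrin (Tf), the carrier of iron in plasma that the eye also makes itself, was at 4.38, 4.27, 4.37 and 5.16 in CTR1 to CTR4. In ONC1 to ONC4 it was at 4.28, 3.42, 4.18 and 4.35. CTR4 was far above and ONC2 far below the other 6 retinas, which lay within 4.18 to 4.38 and overlapped. The means were 4.55 ± 0.41 in CTR and 4.06 ± 0.43 in ONC (SD, n = 4 each), with a difference of -0.49 ± 0.25 (SE; 95% interval -1.06 to 0.08; limma adjusted p = 0.342). Tf was lower in ONC on 4 of 4 arrays, by -0.11, -0.84, -0.20 and -0.81. Without CTR2 and ONC4 the difference was -0.68 (limma adjusted p = 0.212), and it was -0.28 without CTR4 and also without ONC2. Of 11 markers of the pigment epithelium 7 passed, with Ttr the brightest, and 4 of the 7 were likewise lowest in ONC2, while all 7 were higher in ONC (median 0.19), unlike Tf. Their summed log2 level was 5.71, 5.46, 5.36 and 6.26 in CTR1 to CTR4, while ONC1 to ONC4 had 6.17, 4.87, 6.14 and 6.09, and the part of that tissue in the Tf levels was not tested.

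The transferrin receptor (Tfrc), which brings iron-loaded transferrin into cells, was at -0.53, -0.57, -0.58 and -0.69 in CTR1 to CTR4 and at -0.27, -0.44, -0.30 and -0.25 in ONC1 to ONC4. Every ONC retina was above every CTR retina, with ONC2 the nearest to the CTR range. The means were -0.60 ± 0.07 in CTR and -0.32 ± 0.09 in ONC (SD, n = 4 each). The difference of 0.28 ± 0.08 (SE; 95% interval 0.10 to 0.46), or 1.21-fold, exceeded the SD of either group and did not pass over all genes (limma adjusted p = 0.123). It was positive on 4 of 4 arrays and, without CTR2 and ONC4, was 0.27 (limma adjusted p = 0.162). Without loess it was 0.61 and passed (limma adjusted p = 0.00941). The gene level is the mean of both probes, which lie far apart. In CTR1 to CTR4 the first was at 2.93, 2.94, 2.54 and 2.45 and the second at -3.99, -4.08, -3.71 and -3.84. Their deviations there go in opposite directions, so that the SDs above are narrower than the spread of either probe. The SE of the difference was 0.13 and 0.16 by probe, against 0.08 for the mean. The probes differ in what they can show. The first, at chr11:69976628-69976687 of rn4, gave 0.41 with groups apart (limma adjusted p = 0.154). The second, whose 60 bases span 1655 bases of the genome, had a foreground as low as 2.14 times its background, was well above background in 7 of 8 channels and gave 0.15 (limma adjusted p = 0.658).

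Ferritin heavy chain (Fth1), the subunit that oxidizes iron for storage, was at 6.86, 6.66, 6.94 and 6.51 in CTR1 to CTR4 and at 6.36, 6.33, 6.37 and 6.50 in ONC1 to ONC4. No ONC retina reached the CTR range, but CTR4 and ONC4, on the same array, were 0.01 apart. Means were 6.74 ± 0.20 in CTR and 6.39 ± 0.07 in ONC (SD, n = 4 each). The difference of -0.35 ± 0.11 (SE; 95% interval -0.60 to -0.10), a 1.28-fold lower level in ONC, did not pass over all genes (limma adjusted p = 0.141). It was -0.50, -0.32, -0.57 and -0.01 on the 4 arrays and, without CTR2 and ONC4, -0.41 (limma adjusted p = 0.119). In CTR2, CTR4, ONC1 and ONC3 alone it was -0.22 (limma adjusted p = 0.518). Without loess it was -0.75 and passed (limma adjusted p = 0.00872). The call for Fth1 and for Tfrc thus depends on whether the arrays are normalized by loess, with the dye tied to the label on every array.

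The Fth1 probes lie on the plus strand of chromosome 1 (rn4), at chr1:212432616-212432675 and chr1:212432648-212432709, and share 28 bases, so that they are not separate readings of the gene.
Fth1 probe 1: ggctgcctttatcttttctataagttgcac
Fth1 probe 2: ttactggtcactgaggcagtgcatgcatgt
Probe 1, at the second of these places, gave -0.45 (95% interval -0.66 to -0.24; limma adjusted p = 0.0598) with groups apart. Probe 2 gave -0.25 (95% interval -0.55 to 0.05; limma adjusted p = 0.354) with groups that overlapped, and the interval of each holds the value of the other.

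**Figure D3:**
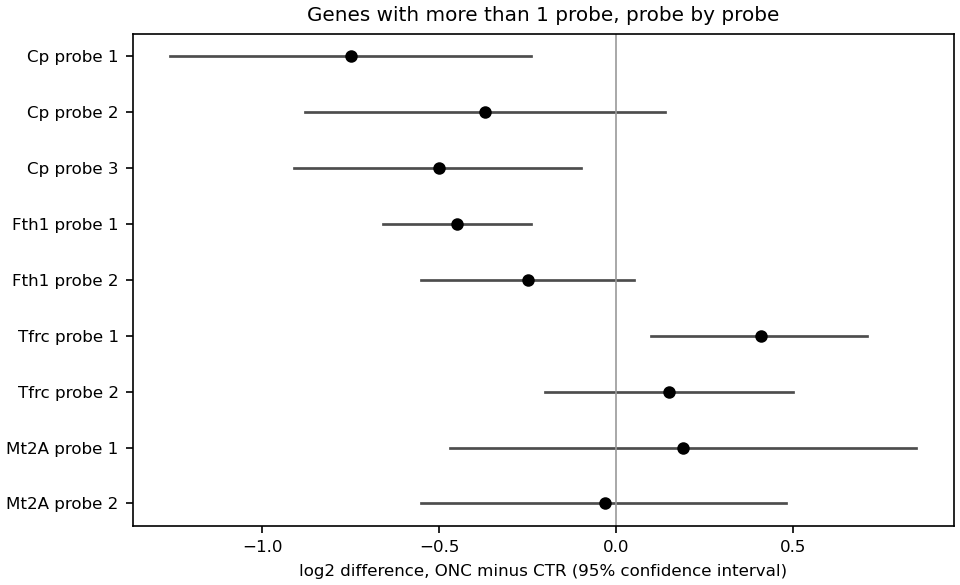
Difference between labelled groups (ONC minus CTR, log2, horizontal axis) for each probe of the 4 genes with more than 1 probe, with its 95% confidence interval. The 3 Cp probes, the 2 Fth1 probes and the 2 Tfrc probes have the sign of their gene, and the Mt2A probes lie on either side of 0.

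Heme oxygenase 1 (Hmox1), the stress-inducible enzyme that opens heme, was dim. Its probe is printed on 10 spots, of which 8 were used, with a foreground 3.5 to 6.1 times the background. It was at -2.95, -3.08, -2.57 and -2.64 in CTR1 to CTR4 and at -2.99, -3.39, -2.92 and -2.79 in ONC1 to ONC4. CTR3 and CTR4 were the highest, ONC2 was the lowest, and the groups overlapped. The means were -2.81 ± 0.24 in CTR and -3.02 ± 0.26 in ONC (SD, n = 4 each), a difference of -0.21 ± 0.16 (SE; 95% interval -0.57 to 0.15; limma adjusted p = 0.524). All 10 repeated spots, with the outlier marks ignored, gave -0.39 to -0.14. The difference was -0.38 without CTR2 and ONC4 (limma adjusted p = 0.21) and turned to 0.19 without loess (limma adjusted p = 0.452). It was -0.09 without ONC2, -0.10 in CTR2, CTR4, ONC1 and ONC3 alone and -0.13 at a minimum of 3 times background. The 95% interval ended at 0.15 with all channels and loess, at 0.39 in CTR2, CTR4, ONC1 and ONC3 alone and at 0.58 without loess. It thus sets no firm bound on a rise of Hmox1 in ONC, and the sign rests on the normalization and on the labels.

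**Figure D4:**
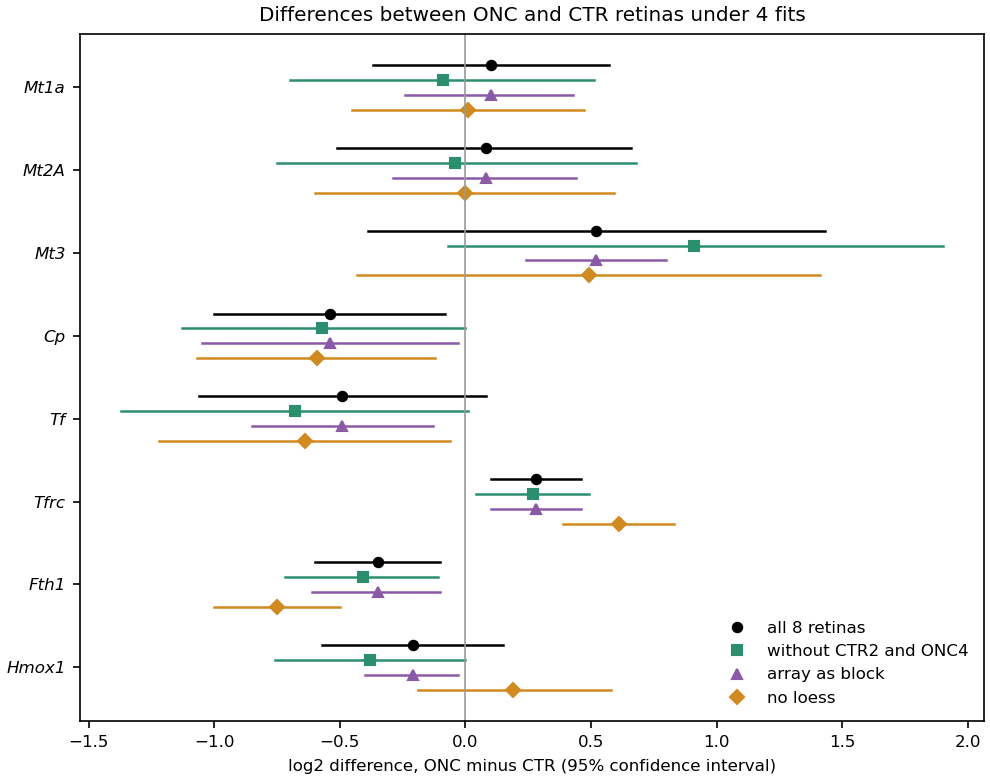
Difference between labelled groups (ONC minus CTR, log2, horizontal axis) for each of the 8 genes with all retinas, without CTR2 and ONC4, with the array as a block and without loess, each with its 95% confidence interval. With all channels and loess the values run from -0.54 for Cp to 0.52 for Mt3, and Hmox1 changes sign without loess.

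The members can be set against one another by the root mean square (RMS) difference of their levels over the 8 channels, each gene less its own mean. It grows with the spread of a gene as well as with the unlikeness of 2 profiles, and so does not by itself show a shared profile. It was smallest for Hmox1 and Fth1 (0.23), followed by Mt2A and Hmox1 (0.27) and Hmox1 and Tf (0.28). Mt3, with an SD of 0.70 over the channels, was at 0.63 to 0.95 from the other 6, and its median over all genes was 0.70. The RMS of Fth1 and Tfrc, whose differences were -0.35 and 0.28, was 0.33.

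The 3 genes most like each member by the same measure over 8 channels were picked by rule from all genes. Cp was nearest to Slc39a8 (0.14), an importer of zinc, iron and manganese, then to Fgfrl1 and Prrx2 (0.15 each), against a median of 0.43 over all genes. Tf was nearest to Tchp (0.11), Dnpep (0.13) and the transcript ENSRNOT00000021227 (0.13), with a median of 0.44. For Tfrc they were Cdkn2c (0.03), a cell cycle inhibitor, Arhgef1 (0.04) and Golga2 (0.04), a Golgi matrix protein, with a median of 0.24. Fth1 lay nearest to Tsen54 (0.05), Edc3 (0.06) and LOC102547963 (0.06), with a median of 0.28, and Hmox1 to LOC317456 (0.04), Sec24c (0.04) and Cirbp (0.05), with a median of 0.27. These small distances come with small variation of the genes themselves. Mt2A was nearest to Clstn1 (0.14), ENSRNOT00000013191 (0.15) and Zfp597 (0.16), with a median of 0.40. Mt3 had no gene closer than 0.27, the probe A_64_P136924, followed by A_64_P156089 and the olfactory receptor gene Olr1475 (0.29 each), with a median of 0.70. No other member is among these 21 genes.

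Beyond the 8, the wider machinery of metals and heme was read from 7 lists of 101 genes, 8 of them the members. Of the 101, 78 were tested, and 13 of the others were not well above background in any channel, among them Mt4, the mitochondrial ferritin Ftmt, the heme exporter Flvcr1 and the heme sensor Bach1. The median difference over the 78 was -0.03, against -0.01 over all genes. It was 0.06 without loess, against 0.07, and -0.06 without CTR2 and ONC4, as over all genes. In limma 1 of the 78 was called, the fall of Nfs1, and 20 passed at an unadjusted p under 0.05, 8 up and 12 down. The groups did not overlap for 13 of the 78. With the array as a block 7 were called, 2 up and 5 down, and without CTR2 and ONC4 2 were. The shares of all genes given above were 0.497% called, 18.6% unadjusted, 12.7% not overlapping, 7.69% with the block and 2.54% without CTR2 and ONC4.

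In the main fit, with all channels and loess and with no block or normalization between arrays, limma called 1 listed gene. This was Nfs1, the desulfurase that supplies sulfur for iron-sulfur clusters. It was at 1.90, 1.98, 1.98 and 1.86 in CTR1 to CTR4 and at 1.40, 1.53, 1.46 and 1.40 in ONC1 to ONC4. All ONC retinas were below all CTR retinas, and the gap between the groups was wider than the range of either. Nfs1 fell by 0.48 on the log2 scale with an SE of 0.08 (limma adjusted p = 0.0438), and was lower on 4 of 4 arrays. The call was lost without any one of the 8 retinas, with differences of -0.51 to -0.46 and limma adjusted p values of 0.0549 to 0.178. Without CTR2 and ONC4 the difference was -0.45 (limma adjusted p = 0.0529).

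Iron uptake, storage and export had 20 of 26 genes tested, 7 higher and 13 lower in ONC, 7 at an unadjusted p under 0.05, with a median of -0.09 and, without CTR2 and ONC4, -0.19. Pcbp2, an iron chaperone that delivers iron to ferritin, differed by 0.39 ± 0.09 (SE; limma adjusted p = 0.0782) and was called with the array as a block (limma adjusted p = 0.0417), with 0.34 when CTR2 and ONC4 were left out. The widest difference was that of Lcn2, the siderophore-binding lipocalin 2, at -1.27 ± 0.93 (SE; limma adjusted p = 0.518). It was low in CTR1, ONC1 and ONC3 (-1.49, -1.91 and -0.95) and at 0.66 to 2.41 in the others, and it is also 1 of the reactive glia markers. Its size rests on single retinas: -2.11 without CTR1, -0.71 without ONC1, -1.49 without CTR2 and ONC4 and -3.27 in CTR2, CTR4, ONC1 and ONC3 alone. The ferrireductase gene Steap4 followed, at -0.54 ± 0.34 (SE; limma adjusted p = 0.44), with CTR3 and CTR4 high. It was -0.59 without CTR2 and ONC4, -0.81 without CTR1, -0.27 without CTR3 and -0.19 with normexp background and no filter on dim spots. Neither the ferritin light chain Ftl1 nor the iron exporter Slc40a1 passed the spot filter.

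Iron sensing and hepcidin had 6 of 10 genes tested, 1 higher and 5 lower, with 0 called by limma, 0 at an unadjusted p under 0.05 and a median of -0.11 that was -0.18 without CTR2 and ONC4 and turned to 0.09 without loess. Hamp, which encodes the iron hormone hepcidin, was dim, with levels of -4.03 to -3.21 and no value at a minimum of 3 times background. It differed by -0.29 ± 0.15 (SE; limma adjusted p = 0.344), and Bmp2, a ligand that raises hepcidin, by -0.26 ± 0.12 (SE; limma adjusted p = 0.29). Both differences turned positive without loess (0.38 and 0.14). When CTR2 and ONC4 were left out they were -0.47 and -0.35, without CTR4 -0.18 and -0.17, and on the processed signals of the scanner software Hamp was -0.67. For heme synthesis, 8 of 9 genes were tested, 4 higher and 4 lower, with a median of 0.01 that turned to -0.06 without CTR2 and ONC4, 0 called by limma and 0 at an unadjusted p under 0.05. The widest differences there were those of Uros, -0.16 ± 0.13 (SE; limma adjusted p = 0.546), and Alad, 0.14 ± 0.10 (SE; limma adjusted p = 0.501), which became -0.28 and 0.05 when those channels were left out. Uros was -0.07 without CTR4, and without loess it turned to 0.05. Alad was 0.09 without CTR2 and 0.01 without loess.

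Heme breakdown, binding and transport had 14 of 18 genes tested, 8 higher and 6 lower, 5 at an unadjusted p under 0.05, with a median of 0.05, or 0.04 without CTR2 and ONC4 and 0.18 without loess. Biliverdin reductase A (Blvra), which makes bilirubin from the product of heme oxygenase, differed by -0.53 ± 0.12 (SE; limma adjusted p = 0.0713). It was lower in every ONC than in every CTR retina and was called with the array as a block (limma adjusted p = 0.029) and without CTR2 and ONC4 (-0.64; limma adjusted p = 0.0483). With all channels and no block, it was called with Aquantile between arrays (limma adjusted p = 0.0389) and without loess (-0.49; limma adjusted p = 0.0229). It was not called on processed signals (limma adjusted p = 0.0837) or without any single retina. Pgrmc1, a heme-binding membrane protein, was at -0.56 ± 0.15 (SE; limma adjusted p = 0.0993) and was called with the block (limma adjusted p = 0.0282), and it was -0.47 without CTR2 and ONC4 and -0.21 in CTR2, CTR4, ONC1 and ONC3 alone. Hebp2, of the heme-binding protein family, was at -2.75, -1.74, -2.95 and -2.23 in CTR1 to CTR4 and at -1.45, -1.33, -1.51 and -2.44 in ONC1 to ONC4. Its high channels, ONC1, ONC2, ONC3 and CTR2, are those with high RGC markers. The difference was 0.74 ± 0.31 (SE; limma adjusted p = 0.253), and without CTR2 and ONC4 it was 1.21 (limma adjusted p = 0.0347). Those channels were left out because their RGC markers differ from those of the other channels of their label, which widens the difference of any gene that follows these markers, so that the larger value adds no support.

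Copper handling had 8 of 9 genes tested, 4 higher and 4 lower, 4 at an unadjusted p under 0.05, with a median of 0.07, or -0.06 without CTR2 and ONC4. The copper chaperones Atox1 (-0.38 ± 0.09, SE) and Ccs (-0.34 ± 0.10, SE) were lower in every ONC than in every CTR retina. Neither passed with all channels, loess and no block (limma adjusted p = 0.0883 and 0.118). Both were called with the array as a block (0.0475 and 0.0498) and without loess (0.0182 and 0.0273). When CTR2 and ONC4 were left out they were -0.38 and -0.28, and on processed signals they shrank to -0.16 and -0.21 (limma adjusted p = 0.321 and 0.287). Ccs delivers copper to superoxide dismutase 1, and Sod1 itself was at 0.95 ± 0.35 (SE; limma adjusted p = 0.2), a difference that was 0.54 without CTR2, where its level was 3.29 against 4.78 to 5.64 elsewhere, and 0.51 without CTR2 and ONC4.

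Zinc transporters had 19 of 24 genes tested, 8 higher and 11 lower, 3 at an unadjusted p under 0.05, with a median of -0.04 that turned to 0.04 without CTR2 and ONC4 and to 0.09 without loess. The importer gene Slc39a10 was higher in every ONC than in every CTR retina, by 0.45 ± 0.12 (SE; limma adjusted p = 0.0938), and was called with the array as a block (limma adjusted p = 0.037), with the same 0.45 when CTR2 and ONC4 were left out. Slc39a8, the gene nearest to Cp, was lower in every ONC than in every CTR retina, at -0.47 ± 0.15 (SE; limma adjusted p = 0.148). It was again -0.47 when CTR2 and ONC4 were left out, and -0.15 without loess (limma adjusted p = 0.436). Mtf1, the zinc-sensing factor named above, was at -0.36 ± 0.15 (SE; limma adjusted p = 0.24) and lower on 4 of 4 arrays. It was -0.51 without CTR2 and ONC4, -0.22 without ONC2 and -0.05 without loess. Next to it stand the differences of 0.08 for Mt2A and 0.52 for Mt3, and with those 2 it makes up the 3 of 5 genes tested in the metallothionein list, of which Mtf1 alone had an unadjusted p under 0.05 and whose median was 0.08, or -0.04 without CTR2 and ONC4.

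**Figure D5:**
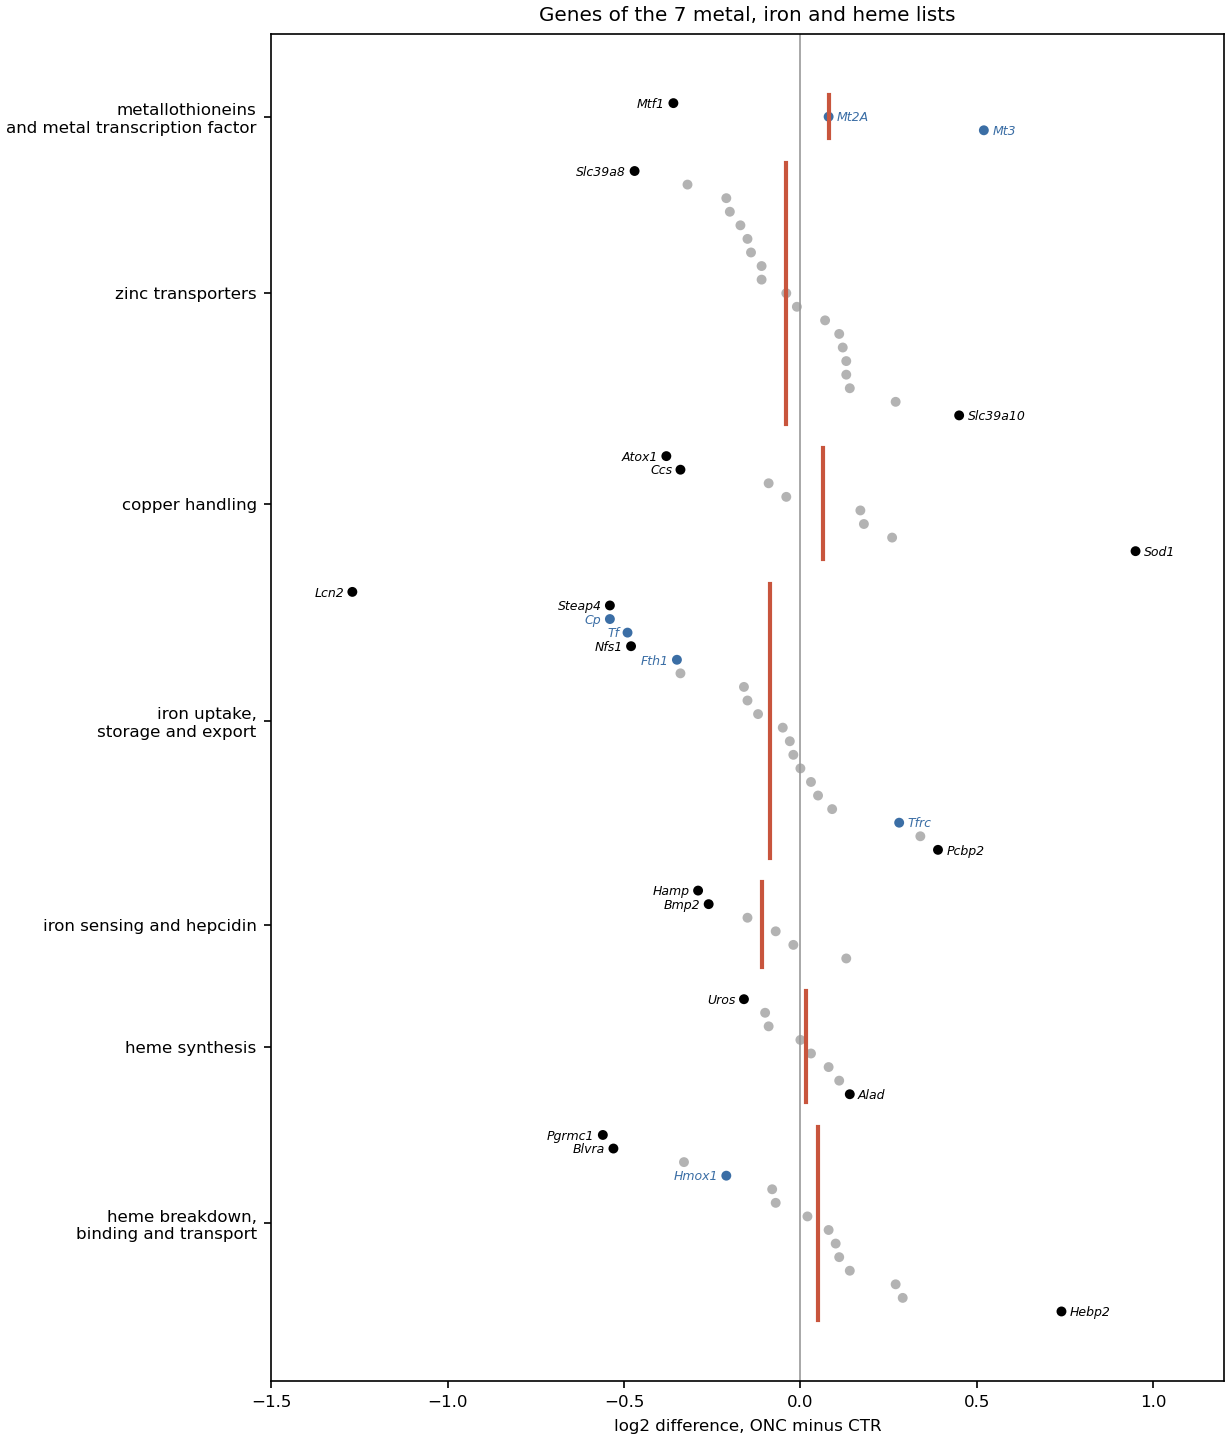
Difference between labelled groups (ONC minus CTR, log2, horizontal axis) of the 78 tested genes in 7 lists, 1 point per gene and ordered within each list, with members in blue, other genes named in the text in black and list medians as red lines. The medians lie between -0.11 and 0.08, and Lcn2, Hebp2 and Sod1 lie farthest out.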

How the data were processed

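The authors deposited, for 4 two-color Agilent rat arrays, the spot intensity values written by Feature Extraction (headers name version 12.0.3.1, the labels 11.1.19.1): mean foreground and median background per channel. Their in-house iterative normalization could not be repeated. Of 44254 spots per array, controls, outlier marks and spots with a foreground under 2 times background in any channel were left out, which kept 27371 spots, 18599 probes and 16307 genes. Background was subtracted, each array normalized by loess and each channel centered on its median; spots, then probes, were averaged. The test of ONC against CTR was limma's (version 3.58.1, R 4.3.3; lmFit, eBayes, two-sided, Benjamini-Hochberg over all genes), unpaired as in the methods. The fit was tested on simulated data. Mt1a was fitted over all genes with an outlier mark dropping a spot on its own array only (16623 genes). Other steps used Python 3.11.15, pandas 2.3.3, numpy 2.4.6 and matplotlib 3.10.9.

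The labels pair retinas by array, and deviations from the group means of retinas on one array correlated over genes by 0.149, 0.549, 0.401 and 0.487. The alternatives were no loess, Aquantile between arrays, the scanner software's processed signals, normexp (offset 50), no filter (with normexp) or a minimum of 3 times background, the array as a block, leaving out retinas, the methods' t-test (its p alone) and single probes. The members and lists were chosen with earlier results of these data known. Named genes are the members, listed genes called with or without the block, the 2 widest differences per list and the 3 genes nearest to each member. Promoters came from RefSeq (GRCr8), which held 6 of the 8 members in the table used, without Hmox1 and Fth1.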

Additional observations from a re-analysis of the deposited data

Results flagged for a closer look

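Levels of the named genes that passed the spot filter and of the marker medians were searched for a retina far from the other 3 of its label. Of 110 groups of 4 retinas, 6 had one, where chance gives about 1 in 20. Tf in CTR4 was 5.16 against 4.27 to 4.38 in the other CTR retinas. Ccs, the copper chaperone for superoxide dismutase, was 2.43 in ONC4, below the 2.70 to 2.74 of ONC1 to ONC3. Hebp2 was -2.44 in ONC4 against -1.51 to -1.33. The median of the RGC markers was -1.24 in ONC4 against 1.24 to 1.37. Among the genes nearest to members, Zfp597 was -3.72 in ONC2 against -3.10 to -3.04, and Tchp was -3.19 in ONC2 against -2.48 to -2.36. Of these 6, a number near that rate, 3 were in ONC4, the dimmest channel, and 2 in ONC2. The 2 in ONC2 were genes picked for their likeness to Mt2A and Tf, and the cause of the outlying values was not tested.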

How the results depend on the processing

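Of 768 alternative values of the 45 named genes, 701 kept their direction and their side of the threshold, 20 came to pass it, 13 no longer passed it and 34, of 13 genes, changed sign. A value that rounds to 0.00, such as those of Mt2A without loess and Zfp597 with normexp, was counted as keeping its direction. The cause of the changes was not tested.

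The count of genes that limma called (81, of which 38 up) was 3194 without loess (2267 up), 412 with Aquantile, 21 on processed signals, 14 with normexp, 0 with normexp and no filter on dim spots together (1957 at an unadjusted p under 0.05), 249 at 3 times background, 415 without CTR2 and ONC4 and 0 in CTR2, CTR4, ONC1 and ONC3 alone (1961 unadjusted). It was 0 to 38 without single retinas. The methods' t-test, without their fold-change cut-off, gave 2682 at an unadjusted p under 0.05, and 0 after Benjamini-Hochberg adjustment. For the members, the limma count of 0 (3 unadjusted) became 2 without loess, the methods' t-test gave 2, and it stayed at 0 under the other alternatives, including each retina left out (0 to 0). For the wider list, 1 became 19 without loess, 2 with Aquantile, 2 without CTR2 and ONC4, and 0 on processed signals (22 unadjusted, of 2878 over all genes), with normexp (16 of 2538), with normexp and no filter (14 of 1957), in the 4 channels alone (12 of 1961) and without each single retina (0 to 0, with 14 to 22).

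With the array as a replicate block, 1254 genes were called, 7 of them on the wider list and 0 members (6 unadjusted). Besides Slc39a10, Atox1, Ccs, Pcbp2, Blvra and Pgrmc1, it changed no call of a named gene.

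Without loess, Hmox1 turned to 0.19, Hamp to 0.38, Bmp2 to 0.14, Uros to 0.05, ENSRNOT00000021227 to 0.15 and Zfp597 to 0.50. On processed signals, Clstn1 turned to -0.02, ENSRNOT00000013191 to -0.01 and Zfp597 to 0.12. Without CTR2 and ONC4, Mt1a turned to -0.09, Mt2A to -0.04 and Clstn1 to -0.04. In CTR2, CTR4, ONC1 and ONC3 alone, Zfp597 turned to 0.29, A_64_P136924 to -0.26, A_64_P156089 to -0.15 and Olr1475 to -0.29. The second Mt2A probe alone gave -0.03. Keeping the marked Mt1a spot, chosen after seeing the data like its use without array 3 only, gave -0.11, and -0.31 without CTR2 and ONC4.

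Leaving out single retinas gave -0.02 to 0.30 for Mt1a, -0.05 to 0.28 for Mt2A, 0.19 to 0.79 for Mt3, -0.69 to -0.36 for Cp, -0.59 to -0.28 for Tf, 0.25 to 0.32 for Tfrc, -0.43 to -0.28 for Fth1 and -0.30 to -0.09 for Hmox1. It gave -0.05 to 0.27 for Clstn1, -0.07 to 0.25 for ENSRNOT00000013191, -0.11 to 0.15 for Zfp597, -0.02 to 0.57 for A_64_P136924 and -0.07 to 0.40 for A_64_P156089.

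Nfs1 lost its call on processed signals (-0.33, limma adjusted p = 0.0773), with normexp (-0.47, 0.0596), with normexp and no filter (-0.45, 0.335), without CTR2 and ONC4 (-0.45, 0.0529), in the 4 channels alone (-0.49, 0.384) and without each single retina (-0.51 to -0.46, 0.0549 to 0.178).

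The limits are few retinas, dye tied to label, RGC markers that go against the labels, low signal over background for Hmox1 and the second Tfrc probe, and low levels of Hamp.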
